A study of Arabidopsis thaliana with 6 samples.

Results

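Nuclear gene expression in seedlings of the Arabidopsis thaliana mutant lhp1-3 was compared with that in wild-type Col-0 seedlings. The comparison took the 4 of 6 RNA-seq libraries that the labels assign to those genotypes, 2 for each, and the 32548 of 34262 features in the count table that carry identifiers of chromosomes 1 to 5. The lhp1-3 seedlings carried the lhp1-3 mutation in the Col-0 ecotype background, and the Col-0 seedlings were wild type. The other 2 libraries came from the importin123 mutant in the same background, a triple mutant in importin alpha genes, whose products carry proteins into the nucleus. They entered the fits, and lhp1-3 was tested against them as well. All seedlings grew on diluted MS medium with 0.8% sucrose in days of 16 h of light and 8 h of darkness, and were taken whole at ZT12, which is 12 h after dawn. Libraries were made from 500 ng of total RNA by poly(A) selection. The labels give neither the age of the seedlings nor the kind and position of the lhp1-3 mutation. They also do not say whether the libraries of a genotype are from different plantings, and the p-values measure only the spread between these libraries, which may be technical. In RNA from whole seedlings, fewer cells of a type and less RNA per cell cannot be told apart.

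LHP1 (LIKE HETEROCHROMATIN PROTEIN1, also called TFL2) is a chromodomain protein that binds histone H3 trimethylated at lysine 27, the mark set by Polycomb repressive complex 2. CLF and SWN are the methyltransferases of that complex in seedlings, and EMF1 is a plant protein that acts with it to keep marked genes silent. Histone demethylases such as REF6 and remodellers such as BRM and SYD act against the mark. Floral homeotic genes and FT, the mobile signal that starts flowering, are classic genes held silent in young leaves by this system, and plants without LHP1 are known to flower early.

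Total counts were 90725014 and 81566899 in lhp1-3, 78775091 and 95101867 in Col-0, and 70137936 and 71527792 in importin123. The libraries differed in the reads found on silent genes. This floor was taken in each library as the median level of the 2302 protein-coding nuclear genes of lowest count (the lowest 10% among those spanning at least 1000 bp). It was 1.53 and 1.44 RPKM in lhp1-3, 0.206 and 0.248 RPKM in Col-0, and 1.78 and 1.32 RPKM in importin123, where RPKM is the read count per kb of the whole gene span, introns included, scaled to library size. Spread over all nuclear genes, the floor made up 12.3% and 11.6% of nuclear counts in lhp1-3, against 1.44% and 1.74% in Col-0. Chloroplast features took 14.9% and 14.5% of all counts in lhp1-3, against 2.95% and 3.27% in Col-0. The lhp1-3 libraries were thus closer to the importin123 libraries in floor and chloroplast share than to Col-0, and the part of either measure in the results below was not tested beyond subtracting the floor. Of 10 green-leaf markers, none was at the floor in any library, which does not tell seedlings from other green tissue.

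**Figure D1:**
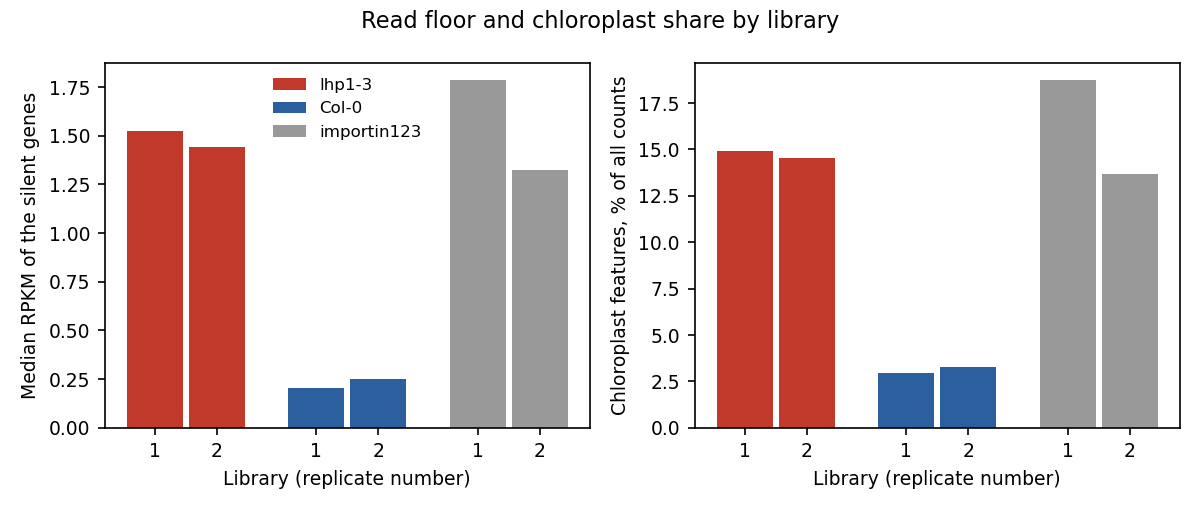
Floor on silent nuclear genes in RPKM and the share of counts on chloroplast features in percent, by library, with lhp1-3 left of Col-0 and importin123 last. Bars are single libraries; the 2 lhp1-3 libraries have floors of 1.53 and 1.44 RPKM, against 0.206 and 0.248 RPKM in Col-0.

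As deposited, the counts gave 13349 nuclear genes higher in lhp1-3 (41.3% of 32308 tested) and 11195 lower (34.7%), at an adjusted p under 0.05 in edgeR's quasi-likelihood test with Benjamini-Hochberg adjustment. The median log2 difference was 0.12 over all of these genes but -0.73 over the 7474 genes with a mean RPKM of at least 10, so that the direction of most genes followed their level. With the scaling taken only from those 7474 genes, the counts were 21173 higher and 1438 lower. Changes are therefore described after each library's floor was subtracted from its counts. On that scale the medians were -0.03 and -0.13, and 1791 genes were higher in lhp1-3 (9.09% of 19699 tested) and 1416 lower (7.19%). "Rose" and "fell" below refer to these calls, and every log2 difference is lhp1-3 minus Col-0 after subtraction, ± SE, unless importin123 is named. RPKM values are as deposited and still contain the floor.

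Of the genes that rose, 753 did so by more than 2-fold and 229 by more than 4-fold; of those that fell, 347 and 44 did. The median log2 difference was 0.88 for the rises and -0.66 for the falls. A further limit was the small number of libraries. Without lhp1-3 replicate 1 the counts were 485 higher and 269 lower, without lhp1-3 replicate 2 they were 1253 and 713, and without Col-0 replicate 2 they were 960 and 530. In every one of the 6 fits that left out a library, 448 rises and 204 falls were still called. A library is named with a gene where leaving it out ended the call. It is also named where leaving it out moved a printed fold by over 1.5 times. Genes without a printed fold may have moved as much. A lone library is then assumed to vary like the other genotypes.

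LHP1 itself (AT5G17690, chromosome 5) was lower in the libraries labelled with its mutation. It read 3.87 and 3.21 RPKM in lhp1-3, 5.46 and 5.11 RPKM in Col-0 and 5.77 and 6.13 RPKM in importin123. No lhp1-3 library reached any other library, and about 2 RPKM remained over the floor. The log2 difference was -1.02 ± 0.15 against Col-0 (edgeR adjusted p = 0.0043) and -1.07 ± 0.15 against importin123 (edgeR adjusted p = 0.00223), and both calls against Col-0, with and without subtraction, held in all 6 fits that left out a library. Whether the remaining reads cover the mutated part of the gene was not analysed here.

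Several floral homeotic genes rose. These MADS-box transcription factors set organ identity in the flower, where AP3 and PI direct petals and stamens and the SEP proteins are their common partners. SEP3 (AT1G24260) read 19.03 and 18.7 RPKM in lhp1-3, against 0.422 and 0.845 RPKM in Col-0 and 1.81 and 1.38 RPKM in importin123. The lhp1-3 libraries stood more than 10 times above every other library. Its log2 difference was 5.66 ± 0.44 (edgeR adjusted p = 0.00153), and 6.62 without Col-0 replicate 2. SEP1 (AT5G15800) read 12.1 and 10.5 RPKM in lhp1-3, against 0.461 and 0.364 RPKM in Col-0 and 1.39 and 1.25 RPKM in importin123. It rose by 6.02 ± 0.33 (edgeR adjusted p = 0.000461; 6.66 without Col-0 replicate 1). PI (AT5G20240) rose by 4.27 ± 0.25 (edgeR adjusted p = 0.000195), with 5.22 and 4.78 RPKM in lhp1-3, against 0.418 and 0.475 RPKM in Col-0 and 3.28 and 2.501 RPKM in importin123. AP3 (AT3G54340) rose from the floor (edgeR adjusted p = 0.00375), with 5.46 and 4.64 RPKM in lhp1-3, against 0.239 and 0.222 RPKM in Col-0, where it could not be told from a silent gene.

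SEP4 was the one member of this family that was clearly expressed in both genotypes. SEP4 (AT2G03710) read 6.92 and 6.43 RPKM in lhp1-3, against 2.48 and 2.82 RPKM in Col-0 and 2.601 and 2.67 RPKM in importin123. Its level in lhp1-3 exceeded that in both other genotypes, by 1.37 ± 0.19 against Col-0 (edgeR adjusted p = 0.00338) and 2.298 ± 0.199 against importin123 (edgeR adjusted p = 0.000245). In importin123 SEP4 lay near the floor of 1.78 and 1.32 RPKM, so the size of that difference is uncertain. FUL (AT5G60910), which acts in the floral meristem and the fruit, read 4.26 and 3.53 RPKM in lhp1-3, against 0.612 and 1.11 RPKM in Col-0. It rose by 2.19 ± 0.36 (edgeR adjusted p = 0.00734; 2.85 without Col-0 replicate 2), a call that ended without lhp1-3 replicate 1 (edgeR adjusted p = 0.0759). Of the 15 floral MADS-box genes listed, 6 passed the filter and all 6 rose. Of those 6, 5 passed only through their level in lhp1-3, so the count says nothing of the list.

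Some other floral identity genes did not pass the filter of the subtracted fit, and ranged from below the lhp1-3 floor to above it. AG, which ends the meristem and makes carpels, read 2.698 and 2.64 RPKM in lhp1-3, against 0.246 and 0.233 RPKM in Col-0 and 1.83 and 1.29 RPKM in importin123. SEP2 read 4.18 and 3.48 RPKM in lhp1-3, against 0.106 and 0.201 RPKM in Col-0. AP1, which marks the early floral meristem, read 2.03 and 1.77 RPKM in lhp1-3, against 0.178 and 0.22 RPKM in Col-0 and 1.87 and 1.34 RPKM in importin123. SEP2 and AG thus stood over the lhp1-3 floor in both libraries, but neither passed the filter of the subtracted fit and so neither was tested there. On deposited counts, where the floor remains, SEP2 was higher by 4.16 ± 0.26 (edgeR adjusted p = 4.74e-09) and AG by 3.03 ± 0.18 (edgeR adjusted p = 2.09e-09). AP1 was higher by 2.79 ± 0.22 on the same counts (edgeR adjusted p = 4.84e-08). All 15 listed floral MADS-box genes and 41.3% of all tested genes were called higher there. A call on that scale thus does not by itself separate a rise from the floor. AP1 lay close to the floor in lhp1-3. The ovule gene STK lay below it, at 1.35 and 1.32 RPKM in lhp1-3, against 0.261 and 0.276 RPKM in Col-0. The 10 flower-organ markers include SEP3, SEP1, PI, AP3, AG, SEP2 and STK, whose levels are given above. Summed over these markers, the level was 56.2 and 51.0 RPKM in lhp1-3, against 3.04 and 3.57 RPKM in Col-0 and 19.1 and 14.5 RPKM in importin123. In the lhp1-3 libraries 3 and 4 of these 10 markers were at the floor, against 6 and 7 in Col-0 and 9 in each importin123 library. The 9 anther and pollen markers summed to 19.9 and 20.1 RPKM in lhp1-3, against 9.70 and 9.51 RPKM in Col-0 and 22.7 and 19.4 RPKM in importin123, and 7 of them were at the floor in both lhp1-3 libraries. Both marker sums contain the floor once per marker, so their differences from Col-0 are in part floor. After subtraction 2 of the anther and pollen markers could be tested, and none was called.

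**Figure D2:**
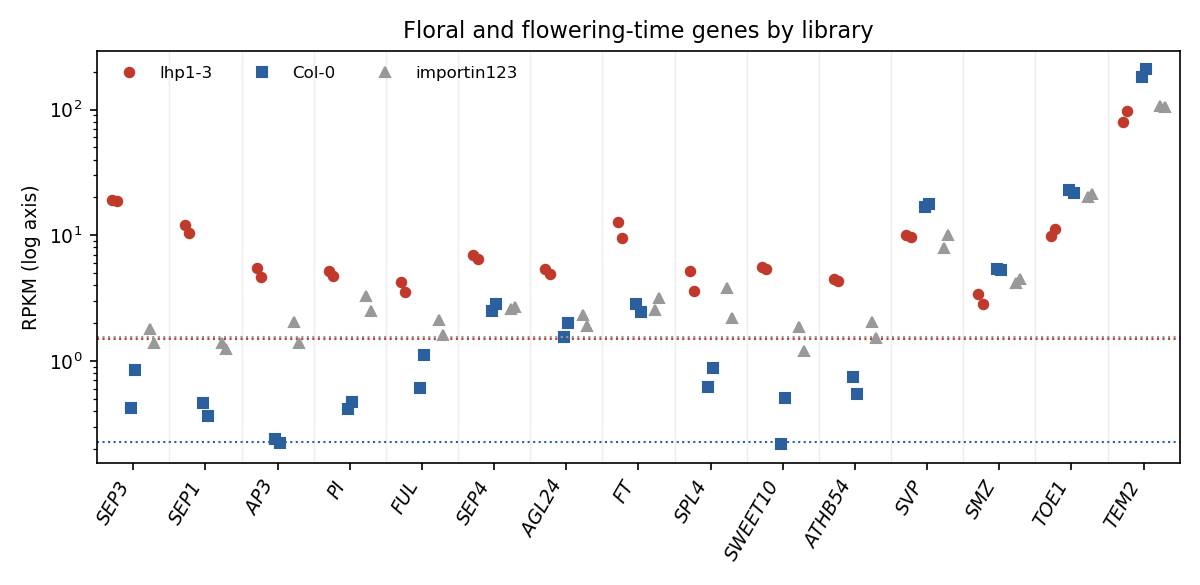
Level of floral and flowering genes in RPKM as deposited (log axis) in each library, with lhp1-3 left of Col-0 and importin123 last. Points are single libraries and dotted lines are the mean floor of each genotype; SEP3 reaches 19.03 and 18.7 RPKM in lhp1-3, against 0.422 and 0.845 RPKM in Col-0, while SVP, SMZ, TOE1 and TEM2 are lower in lhp1-3 than in Col-0.

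The sequences upstream of PI and SEP4 are shown because the GAGA motif, GAGAGAGA, is one that Polycomb recruiting proteins of plants are known to bind, and these were the members above the filter whose start region held it. Capitals mark the motif, and the runs are the 250 bases before the annotated start in the RefSeq assembly TAIR10.1, read 5′ to 3′ on the gene's strand: PI at chr5:6828654-6828903 and SEP4 at chr2:1128979-1129228, both on the plus strand.
PI: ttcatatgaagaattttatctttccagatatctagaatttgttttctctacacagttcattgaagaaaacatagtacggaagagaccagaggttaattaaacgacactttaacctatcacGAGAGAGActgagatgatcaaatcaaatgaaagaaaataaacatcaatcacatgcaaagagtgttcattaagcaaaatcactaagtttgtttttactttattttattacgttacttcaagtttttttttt
SEP4: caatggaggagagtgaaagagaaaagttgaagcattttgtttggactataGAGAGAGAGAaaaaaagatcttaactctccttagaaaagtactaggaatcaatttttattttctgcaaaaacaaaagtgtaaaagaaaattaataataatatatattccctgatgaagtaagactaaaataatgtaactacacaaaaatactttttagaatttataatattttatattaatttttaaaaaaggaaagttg
The match began 130 bases before the start of PI, and overlapping matches began 200 and 198 bases before the start of SEP4. Searched on both strands in the window from 250 bases before to 50 after the start, the motif was in 8.38% of 27443 protein-coding genes, in 9.98% of those that rose and in 7.69% of those that fell. Of the 15 floral MADS-box windows 3 held it, those of PI, SEP2 and SEP4, and none held a CArG-box, the motif that MADS-box proteins bind, against 3.05% of all windows. The telobox AAACCCTA was in 5.02% of windows of genes that rose, 3.85% of those that fell and 6.22% of all.

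Regulators of flowering time moved in both directions. Of 29 tested, 5 rose and 8 fell, against 9.09% and 7.19% of all genes, with a median log2 difference of -0.06 beside -0.03 over all genes. Without lhp1-3 replicate 1 the counts were 1 and 2, without Col-0 replicate 2 they were 2 and 5, and without Col-0 replicate 1 they were 3 and 7. FT (AT1G65480) read 12.7 and 9.54 RPKM in lhp1-3, against 2.82 and 2.44 RPKM in Col-0 and 2.52 and 3.19 RPKM in importin123. Both lhp1-3 libraries stood well above every other library. FT rose by 2.27 ± 0.35 (edgeR adjusted p = 0.0114), and the call ended without lhp1-3 replicate 1 (edgeR adjusted p = 0.0739) or Col-0 replicate 2 (0.0645). AGL24 (AT4G24540), a MADS-box activator of flowering, rose by 1.52 ± 0.18 (edgeR adjusted p = 0.00189). It read 5.37 and 4.94 RPKM in lhp1-3, against 1.54 and 2.002 RPKM in Col-0 and 2.33 and 1.895 RPKM in importin123. AGL24 was also higher than in importin123 (edgeR adjusted p = 0.000119), where it lay near the floor of 1.78 and 1.32 RPKM. The size of that difference is therefore uncertain. SPL4, which promotes the change to the reproductive phase, read 5.23 and 3.62 RPKM in lhp1-3, against 0.616 and 0.882 RPKM in Col-0. Its rise of 2.74 ± 0.52 (edgeR adjusted p = 0.0142) was not called without lhp1-3 replicate 1 (edgeR adjusted p = 0.102).

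The other 2 rises of the list were those of SPL3, an activator related to SPL4 (0.97 ± 0.22; edgeR adjusted p = 0.023), and of MAF2, a repressor of the FLC clade (0.65 ± 0.17; edgeR adjusted p = 0.0379). MAF2 read 6.11 and 4.64 RPKM in lhp1-3, against 3.303 and 3.12 RPKM in Col-0 and 6.24 and 5.37 RPKM in importin123. The call of SPL3 ended without any 1 of the lhp1-3 or Col-0 libraries, and that of MAF2 was kept only without lhp1-3 replicate 2. Of the genes that fell, several encode repressors of FT or of flowering. TOE1 and SMZ are AP2-type repressors. TOE1 (AT2G28550) read 9.897 and 11.2 RPKM in lhp1-3, against 22.8 and 21.7 RPKM in Col-0 and 20.3 and 21.1 RPKM in importin123, and its lhp1-3 libraries were the lowest of the 6. It fell (-1.004 ± 0.12; edgeR adjusted p = 0.0016) and was lower than importin123 by much the same (-1.05 ± 0.12; edgeR adjusted p = 0.000732). SMZ (AT3G54990) was at 3.42 and 2.83 RPKM in lhp1-3, against 5.42 and 5.27 RPKM in Col-0 (-1.37 ± 0.17; edgeR adjusted p = 0.00212). SVP, a MADS-box repressor, read 10.05 and 9.76 RPKM in lhp1-3, against 16.8 and 17.7 RPKM in Col-0 (-0.74 ± 0.12; edgeR adjusted p = 0.00625). TEM2, which represses FT, read 80.3 and 96.7 RPKM in lhp1-3, against 181 and 208 RPKM in Col-0 (-0.88 ± 0.16; edgeR adjusted p = 0.0104). Neither SVP nor TEM2 was called without lhp1-3 replicate 1 (edgeR adjusted p = 0.0739 and 0.0828). SVP was close to its importin123 level of 7.903 and 9.97 RPKM. FLC, the vernalization repressor and a well-known Polycomb target, read 2.9 and 2.73 RPKM in lhp1-3, against 1.17 and 1.17 RPKM in Col-0 and 2.54 and 1.65 RPKM in importin123, and was too near the floor to be tested. SOC1, which integrates flowering signals, read 9.27 and 7.08 RPKM in lhp1-3, against 4.42 and 7.82 RPKM in Col-0, and the 2 Col-0 libraries differed enough that the groups overlapped (0.45 ± 0.54; edgeR adjusted p = 0.613).

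Among meristem and organ genes the rises that held in every fit were few. ALC, a basic helix-loop-helix factor of the fruit valve margin, read 12.9 and 10.5 RPKM in lhp1-3, against 4.16 and 3.85 RPKM in Col-0 and 5.01 and 4.12 RPKM in importin123. It rose by 1.71 ± 0.18 (edgeR adjusted p = 0.00117), and no lhp1-3 library came near another genotype. RPL, a BELL homeobox gene that limits valve margin genes in the fruit and keeps the inflorescence meristem, rose by 1.01 ± 0.13 (edgeR adjusted p = 0.00276). It read 10.2 and 11.4 RPKM in lhp1-3, against 5.86 and 5.77 RPKM in Col-0 and 4.46 and 4.97 RPKM in importin123. Over all tested genes, 9.09% rose and 7.19% fell. Of 16 KNOX and BELL genes 5 rose and 1 fell, but only RPL kept its rise in all fits, and the counts without lhp1-3 replicate 1 were 1 and 0, without lhp1-3 replicate 2 3 and 0, without Col-0 replicate 2 2 and 0, and without Col-0 replicate 1 4 and 0. KNAT1, which keeps the shoot meristem, read 5.43 and 3.71 RPKM in lhp1-3, against 1.98 and 1.99 RPKM in Col-0 (1.08 ± 0.24; edgeR adjusted p = 0.0214), and was not called without lhp1-3 replicate 1 (0.121) or Col-0 replicate 2 (0.0607). LOB, expressed at organ boundaries, read 4.42 and 3.796 RPKM in lhp1-3, against 1.47 and 1.82 RPKM in Col-0 (1.16 ± 0.21; edgeR adjusted p = 0.0104), and was not called without lhp1-3 replicate 1 (0.0917). KNU, a zinc finger factor that ends stem cell activity in the flower, read 3.21 and 3.37 RPKM in lhp1-3, against 0.226 and 0.656 RPKM in Col-0 and 4.35 and 3.38 RPKM in importin123. Its rise (3.305 ± 0.83; edgeR adjusted p = 0.0397; 2.42 and 6.90 without Col-0 replicates 1 and 2) ended when any 1 of the lhp1-3 or importin123 libraries was left out (edgeR adjusted p between 0.0775 and 0.152). YAB5, a factor of the lower leaf side, fell to the floor (edgeR adjusted p = 0.0121) in all fits, with 1.82 and 2.23 RPKM in lhp1-3, against 5.39 and 4.96 RPKM in Col-0 and 5.72 and 4.98 RPKM in importin123.

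The Polycomb machinery and the factors that oppose it were then examined. Of 24 Polycomb genes and partners, 5 rose and LHP1 alone fell, against 9.09% and 7.19% of all genes. Their median log2 difference was 0.03. EMF1 (AT5G11530) had the largest rise of those called, 1.71 ± 0.19 (edgeR adjusted p = 0.00161). It read 6.36 and 4.66 RPKM in lhp1-3, against 1.804 and 1.61 RPKM in Col-0 and 3.77 and 4.09 RPKM in importin123. The lhp1-3 libraries were above all others, and EMF1 was also higher than importin123 (0.79 ± 0.19; edgeR adjusted p = 0.0207). CLF read 3.86 and 3.55 RPKM in lhp1-3, against 1.98 and 1.67 RPKM in Col-0 and 4.79 and 4.44 RPKM in importin123, so lhp1-3 lay between the other genotypes. The rise of CLF over Col-0 (0.75 ± 0.14; edgeR adjusted p = 0.00974) was not called without lhp1-3 replicate 1 (0.076) or Col-0 replicate 2 (0.0568), and that of SWN (0.67 ± 0.11; edgeR adjusted p = 0.00704) was not called without lhp1-3 replicate 1 (0.0629). The rise of EMF1 and the fall of LHP1 were the calls of the list that held in all 6 such fits. The list had 1 rise without lhp1-3 replicate 1 and 3 without Col-0 replicate 2.

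Of 11 tested genes for H3K27 demethylases and trithorax factors, 9 rose and none fell, with a median log2 difference of 0.90, against rises in 9.09% of all genes. SYD, a SWI/SNF remodeller, read 8.02 and 6.83 RPKM in lhp1-3, against 3.104 and 2.62 RPKM in Col-0 and 7.45 and 7.67 RPKM in importin123. The Col-0 libraries were the lowest, and the importin123 libraries lay between those of lhp1-3. SYD rose by 1.45 ± 0.13 against Col-0 (edgeR adjusted p = 0.000579) and differed from importin123 by 0.01 ± 0.12 (edgeR adjusted p = 0.969). ATXR3, an H3K4 methyltransferase, read 6.36 and 4.73 RPKM in lhp1-3, against 2.41 and 2.04 RPKM in Col-0 and 5.37 and 5.43 RPKM in importin123 (1.296 ± 0.17 against Col-0, edgeR adjusted p = 0.00277). REF6, a demethylase, rose by 0.93 ± 0.13 (edgeR adjusted p = 0.00385), and BRM rose by 0.75 ± 0.11 (edgeR adjusted p = 0.00393). Against importin123, REF6 differed by 0.29 ± 0.13 (edgeR adjusted p = 0.154) and BRM by 0.09 ± 0.11 (edgeR adjusted p = 0.591). None of the 9 rises was also called higher than importin123. Of the 9 rises, 5 held in all 6 fits, which was also their number without lhp1-3 replicate 1. Of 22 DNA methylation genes 9 rose and none fell, and 1 of the 9 was also called higher than importin123. ROS1, a DNA demethylase, read 8.95 and 7.52 RPKM in lhp1-3, against 3.29 and 3.21 RPKM in Col-0 and 7.35 and 9.67 RPKM in importin123 (1.43 ± 0.15; edgeR adjusted p = 0.00102). CMT2, a DNA methyltransferase of heterochromatin, read 3.77 and 3.11 RPKM in lhp1-3, against 1.27 and 1.35 RPKM in Col-0 and 3.45 and 3.14 RPKM in importin123 (1.13 ± 0.15; edgeR adjusted p = 0.00276). The count of this list was 4 without lhp1-3 replicate 1, and 6 without lhp1-3 replicate 2, Col-0 replicate 1 or Col-0 replicate 2.

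These chromatin genes are long, and gene length moved with the calls. SYD spans 17066 bp, ATXR3 11181 bp, BRM 9522 bp, DME 9421 bp and EMF1 5757 bp. The median span was 2323 bp over the tested protein-coding genes, 3159 bp over those that rose and 1865 bp over those that fell. Of 2536 protein-coding genes spanning 4000 bp or more, 599 rose (23.6%) and 57 fell (2.25%). Of 5421 spanning 1000 to under 2000 bp, 266 rose (4.91%) and 486 fell (8.97%). The long genes had 154 rises and 9 falls without lhp1-3 replicate 1, 295 and 19 without Col-0 replicate 2, and 509 and 25 without lhp1-3 replicate 2. The genes of 1000 to under 2000 bp had 84 and 86, 174 and 180, and 147 and 240 in the same fits. The split by span was also present far above the floor: among genes with no near-identical copy and a mean RPKM of at least 20, 7.50% rose and 2.92% fell at 4000 bp or more, against 1.62% and 17.6% under 2000 bp. The split in rises was absent when either Col-0 library was left out. Without Col-0 replicate 1, 11 of the 240 long genes and 75 of the 1665 short ones rose, and 6 and 250 fell. Without lhp1-3 replicate 1, 3 and 11 rose and 0 and 55 fell, without lhp1-3 replicate 2, 9 and 14 rose and 3 and 171 fell, and without Col-0 replicate 2, 3 and 24 rose and 0 and 115 fell. Against importin123, whose floor was like that of lhp1-3, 12.7% of genes of 4000 bp or more were higher in lhp1-3 and 7.64% lower, and under 2000 bp 13.5% were higher and 10.99% lower. The part of gene span in the rises of chromatin genes was not tested.

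**Figure D3:**
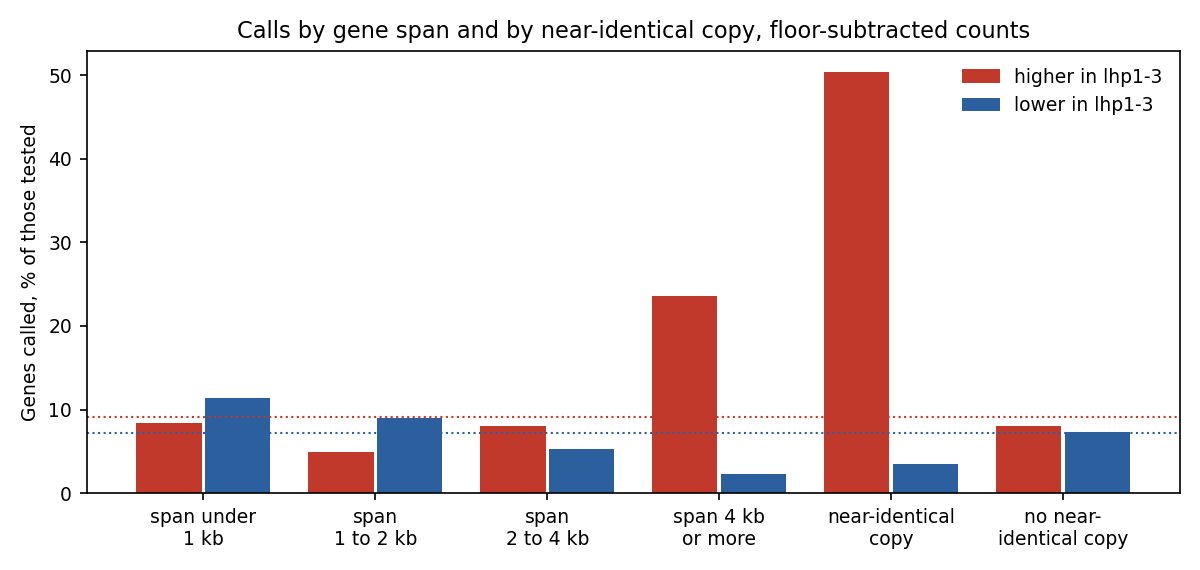
Share of tested genes called higher and lower in lhp1-3 than in Col-0, in percent, by gene span and by the presence of a near-identical copy. Bars are shares of genes in each class and dotted lines the shares over all tested genes, 9.09% higher and 7.19% lower; the longest class and the class with copies have the highest shares of rises, 23.6% and 50.4%.

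Kinesins, the motor proteins of microtubules, are also encoded by long genes. Of 19 tested genes with a kinesin product, a class chosen after its values were seen, 13 rose and 1 fell, with a median span of 5150 bp, against 9.09% and 7.19% of all genes and 23.6% and 2.25% of protein-coding genes of 4000 bp or more. Without lhp1-3 replicate 1 there were 6 rises, and the fall was called in none of the fits that left out a library. Of the 19, 1 was higher in lhp1-3 than in importin123, where 13.4% of all tested genes were higher in lhp1-3 and 9.14% lower. KINESIN-12B, of the phragmoplast that builds the new cell wall, read 3.31 and 3.18 RPKM in lhp1-3, against 1.19 and 1.19 RPKM in Col-0 and 3.205 and 2.99 RPKM in importin123. Its level was alike in both mutants, with a rise of 1.15 ± 0.13 over Col-0 (edgeR adjusted p = 0.00137) and a difference of 0.22 ± 0.12 from importin123 (edgeR adjusted p = 0.249).

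Many disease resistance genes, whose products sense pathogen effectors, were higher in lhp1-3 than in Col-0, and many were higher than in importin123. Of 100 tested genes with such a product, a class also chosen after its values were seen, 47 rose and none fell, against 9.09% and 7.19% of all genes. In the test against importin123, which uses the same lhp1-3 libraries, 46 of the 100 were higher in lhp1-3 and 2 lower. Over all tested genes, 13.4% were higher in lhp1-3 than in importin123 and 9.14% lower. Of protein-coding genes spanning 4000 bp or more, 23.6% rose over Col-0 and 2.25% fell. The median span of the 100 was 4488 bp, and 14 of the 47 that rose have a near-identical copy. Without lhp1-3 replicate 1, 22 were higher than Col-0, all of which held in every fit, and without Col-0 replicate 2 the number was 38. AT1G62630 read 8.64 and 7.61 RPKM in lhp1-3, against 4.91 and 4.31 RPKM in Col-0 and 4.61 and 4.88 RPKM in importin123. Its lhp1-3 libraries stood clear of the other 4, with differences of 0.87 ± 0.12 against Col-0 (edgeR adjusted p = 0.00343) and 1.08 ± 0.12 against importin123 (edgeR adjusted p = 0.000821). AT5G46260 read 4.33 and 4.45 RPKM in lhp1-3, against 1.08 and 1.09 RPKM in Col-0 and 3.33 and 3.04 RPKM in importin123. It was higher by 2.04 ± 0.14 than in Col-0 (edgeR adjusted p = 0.00025) and by 0.86 ± 0.13 than in importin123 (edgeR adjusted p = 0.00318). AT3G44670 was the most expressed of these examples, with 17.1 and 12.9 RPKM in lhp1-3, against 5.72 and 5.604 RPKM in Col-0 and 9.45 and 11.8 RPKM in importin123 (1.59 ± 0.15 against Col-0; edgeR adjusted p = 0.000684).

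The RPP5 cluster on chromosome 4 showed both patterns. RPP5, named for resistance to downy mildew and with a near-identical copy, read 35.6 and 30.4 RPKM in lhp1-3, against 18.8 and 17.1 RPKM in Col-0 and 21.5 and 28.6 RPKM in importin123 (1.11 ± 0.14; edgeR adjusted p = 0.00229). Its neighbour AT4G16960 rose more, by 2.02 ± 0.13 (edgeR adjusted p = 0.000241), with 9.54 and 7.86 RPKM in lhp1-3, against 2.56 and 2.201 RPKM in Col-0. In importin123 it read 8.11 and 8.44 RPKM, and the difference from lhp1-3 was 0.13 ± 0.13 (edgeR adjusted p = 0.515). SNC1, of the same cluster, read 51.4 and 45.6 RPKM in lhp1-3, against 32.8 and 32.6 RPKM in Col-0 and 28.1 and 39.1 RPKM in importin123, and its rise (0.81 ± 0.14; edgeR adjusted p = 0.00886) was not called without lhp1-3 replicate 1 (0.0705). RPP5, AT4G16960 and SNC1 were named with their values in view.

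**Figure D4:**
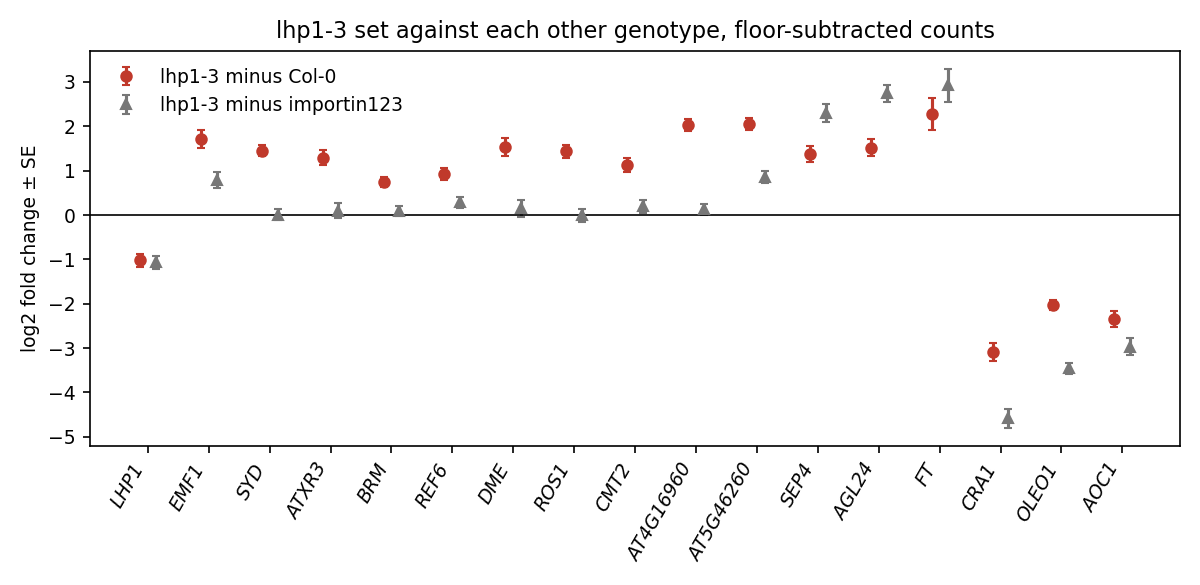
Log2 difference after floor subtraction, ± SE, of lhp1-3 minus Col-0 (circles) and lhp1-3 minus importin123 (triangles) for chromatin, resistance, flowering and seed genes, with 2 libraries per genotype. SYD lies at 1.45 against Col-0 and 0.01 against importin123, whereas SEP4 and AGL24 lie above both and CRA1, OLEO1 and AOC1 below both. The sizes of the SEP4 and AGL24 differences from importin123 are uncertain, since their importin123 levels were near the floor.

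Genes with a near-identical copy elsewhere in the nuclear genome made up 2.61% of the tested genes, 14.5% of those that rose and 47.2% of those that rose by 4-fold or more. The share was 1.27% among those that fell. Reads of such copies can be placed on either of them, so their values are uncertain. Of the 514 tested, 259 rose, and 159 were called higher without lhp1-3 replicate 1. In the test against importin123, 42 of the 514 were higher in lhp1-3, where 13.4% of all tested genes were higher. MIR5642b, a microRNA gene, read 1028 and 890.3 RPKM in lhp1-3, against 76.9 and 93.6 RPKM in Col-0 and 1199.7 and 944 RPKM in importin123. Both mutants were near 10 times the Col-0 level, with a difference of 3.77 ± 0.22 from Col-0 (edgeR adjusted p = 0.000195) and -0.15 ± 0.19 from importin123 (edgeR adjusted p = 0.613). Its partner MIR5642a rose by 3.31 ± 0.24 (edgeR adjusted p = 0.000405). HSD4, a hydroxysteroid dehydrogenase, read 4.38 and 4.87 RPKM in lhp1-3, against 0.67 and 0.535 RPKM in Col-0 and 6.303 and 4.47 RPKM in importin123 (3.35 ± 0.34; edgeR adjusted p = 0.00107). Its copy HSD7 (3.69 ± 0.46), PUM18 (3.64 ± 0.46), NHL22 (3.66 ± 0.47), hda10 (3.55 ± 0.55) and LURE1.2 (3.705 ± 0.73) had differences of like size, and none of these genes differed from importin123 at an adjusted p under 0.05 in edgeR. Without Col-0 replicate 1 HSD7 stood at 4.595 and hda10 at 4.91, and without Col-0 replicate 2 PUM18 stood at 4.43, hda10 at 2.83 and LURE1.2 at 5.29; LURE1.2 stood at 3.03 without Col-0 replicate 1. The call of hda10 ended without lhp1-3 replicate 1 (edgeR adjusted p = 0.0618) and that of LURE1.2 without lhp1-3 replicate 2 (0.0705). The histone deacetylase gene hda17 rose from the floor, with 3.76 and 4.09 RPKM in lhp1-3, against 0.261 and 0.366 RPKM in Col-0 and 4.67 and 3.02 RPKM in importin123 (edgeR adjusted p = 0.001). A run of 10 neighbouring genes from AT5G39110 to AT5G39200 rose, 9 of them with copies, and 5 kept their call without lhp1-3 replicate 1, among them AT5G39140 with 10.8 and 11.5 RPKM in lhp1-3, against 1.49 and 1.84 RPKM in Col-0 and 11.5 and 10.5 RPKM in importin123.

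Few genes were at the floor in Col-0 and at a clear level in lhp1-3. By RPKM, 6 genes were at least 3 times the floor in both lhp1-3 libraries and at most 1.5 times the floor in both Col-0 libraries, with 12 and 15 when Col-0 replicate 1 or 2 was left out. They were AP3, AT4G05470, AT4G05475, AT1G07017, AT2G07565 and AT4G06675. AT4G05475 read 9.14 and 9.38 RPKM in lhp1-3, against 0.216 and 0.364 RPKM in Col-0 and 1.91 and 1.16 RPKM in importin123. Its neighbour AT4G05470 read 5.72 and 4.97 RPKM in lhp1-3, against 0.279 and 0.349 RPKM in Col-0 and 2.34 and 1.59 RPKM in importin123. Both are annotated as RNI-like proteins and were near the floor in importin123; AT4G05470 was called in all fits (edgeR adjusted p = 0.000407), and AT4G05475 (edgeR adjusted p = 0.0111) not without lhp1-3 replicate 1 (0.0534). AT2G07565, with a Ycf1 domain, read 17.8 and 15.98 RPKM in lhp1-3, against 0.169 and 0.28 RPKM in Col-0 and 17.6 and 15.8 RPKM in importin123. The long noncoding RNA AT1G07017 read 6.04 and 5.04 RPKM in lhp1-3, against 0.0956 and 0.111 RPKM in Col-0 and 6.79 and 4.13 RPKM in importin123. Both of these were at the same level in both mutants. AT4G06675 read 8.199 and 6.76 RPKM in lhp1-3, against 0.25 and 0.104 RPKM in Col-0 and 5.69 and 0.758 RPKM in importin123, where the libraries differed, and it was not called (edgeR adjusted p = 0.062).

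Most of the further rises outside the lists were picked with their values in view. SWEET10, a sugar exporter, read 5.64 and 5.35 RPKM in lhp1-3, against 0.218 and 0.506 RPKM in Col-0 and 1.87 and 1.21 RPKM in importin123. It rose by 5.09 ± 1.11 (edgeR adjusted p = 0.0383), but not without lhp1-3 replicate 1 (0.12) or 2 (0.0812), and stood at 4.22 without Col-0 replicate 1 and 8.35 without Col-0 replicate 2. ATHB54, a homeobox factor, read 4.495 and 4.34 RPKM in lhp1-3, against 0.748 and 0.546 RPKM in Col-0 and 2.04 and 1.52 RPKM in importin123. Its rise of 3.09 ± 0.35 (edgeR adjusted p = 0.00152) held in all fits. MT1B, a metallothionein, read 39.1 and 36.7 RPKM in lhp1-3, against 11.9 and 9.82 RPKM in Col-0 and 18.3 and 19.5 RPKM in importin123, and rose by 2.05 ± 0.12 (edgeR adjusted p = 0.000195). Its relatives MT1A and MT1C went the other way. MT1A read 576 and 535 RPKM in lhp1-3, against 1762 and 1572 RPKM in Col-0 (-1.31 ± 0.13; edgeR adjusted p = 0.000832). MT1C read 66.999 and 68.3 RPKM in lhp1-3, against 153 and 146 RPKM in Col-0 (-0.895 ± 0.098; edgeR adjusted p = 0.00133). The noncoding RNA gene AT4G13495 rose by 2.68 ± 0.204 (edgeR adjusted p = 0.000508), with 18.003 and 12.2 RPKM in lhp1-3, against 2.91 and 2.67 RPKM in Col-0 and 3.77 and 4.201 RPKM in importin123. AT2G20870, annotated as a cell wall protein precursor, rose by 4.19 ± 0.41 (edgeR adjusted p = 0.000903). The neighbours AT3G19550, a glutamate racemase by annotation, and AT3G19552 were both higher, AT3G19552 by 5.77 ± 0.58 (edgeR adjusted p = 0.000959; 6.71 without Col-0 replicate 2). AT3G19550 read 5.32 and 4.78 RPKM in lhp1-3, against 0.245 and 0.389 RPKM in Col-0.

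Several seed reserve genes fell. Cruciferins are storage globulins of the seed and oleosins coat its oil bodies. CRU3 (AT4G28520) read 4.36 and 3.91 RPKM in lhp1-3, against 47.9 and 74.6 RPKM in Col-0 and 86.9 and 175 RPKM in importin123. CRA1 (AT5G44120) read 12.4 and 11.4 RPKM in lhp1-3, against 99.8 and 114 RPKM in Col-0 and 196 and 321 RPKM in importin123. Neither overlapped between genotypes, and importin123 was the highest for both. CRU3 fell by 4.25 on the log2 scale (-4.25 ± 0.38; edgeR adjusted p = 0.00213) and CRA1 by 3.09 (-3.09 ± 0.199; edgeR adjusted p = 0.000225). OLEO1 read 5.43 and 5.57 RPKM in lhp1-3, against 19.3 and 20.7 RPKM in Col-0 (-2.02 ± 0.11; edgeR adjusted p = 0.000195). OLEO2 read 7.86 and 9.05 RPKM in lhp1-3, against 25.6 and 32.2 RPKM in Col-0 (-1.76 ± 0.17; edgeR adjusted p = 0.00107). PER1, a seed peroxiredoxin, read 10.6 and 8.59 RPKM in lhp1-3, against 20.7 and 27.05 RPKM in Col-0 (-1.27 ± 0.16; edgeR adjusted p = 0.00221). Of 15 seed reserve and oil body genes tested, 6 fell and none rose, with a median log2 difference of -1.27, against falls in 7.19% and rises in 9.09% of all genes. Of the falls, 5 held in all fits; the other, M17 (-1.76 ± 0.37; edgeR adjusted p = 0.0346), has a near-identical copy and was not called without lhp1-3 replicate 1 (0.143) or 2 (0.05003) or either importin123 library. Without Col-0 replicate 2 there was 1 rise in the list.

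Some further falls were of genes outside that list. TIP3;1, the aquaporin of the seed storage vacuole, read 6.67 and 7.95 RPKM in lhp1-3, against 18.6 and 24.7 RPKM in Col-0 (-1.603 ± 0.18; edgeR adjusted p = 0.00176). BGLU19, a beta-glucosidase, read 5.85 and 5.204 RPKM in lhp1-3, against 27.9 and 27.8 RPKM in Col-0 (-2.498 ± 0.204; edgeR adjusted p = 0.000607). The 10 dry-seed markers are not separate from the falls above, since they include CRU3, CRA1, OLEO1, OLEO2 and PER1. Their summed level was 50.02 and 47.8 RPKM in lhp1-3, against 216 and 278 RPKM in Col-0 and 425 and 642 RPKM in importin123. In lhp1-3, 5 and 4 of the 10 were at the floor, against 3 and 2 in Col-0. The part of dry-seed remains, for which these markers stand, in the falls was not tested. RAB18, a dehydrin of seeds and of drought, read 40.02 and 45.98 RPKM in lhp1-3, against 69.3 and 69.7 RPKM in Col-0 and 334 and 656 RPKM in importin123, and was not called (-0.46 ± 0.25; edgeR adjusted p = 0.241). SESA1, a seed albumin, was at 1.96 and 1.59 RPKM in lhp1-3, against 1.07 and 4.43 RPKM in Col-0, where the libraries differed 4-fold.

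The upstream sequences of CRU3, CRA1 and OLEO1, which fell, are shown because they hold CATGCA, the core of the RY element that B3-type seed regulators bind. This motif was added to the search after the values were seen. Capitals mark CATGCA or its reverse complement TGCATG in the 250 bases before the start, 5′ to 3′ on the gene's strand in TAIR10.1 of RefSeq: CRU3 at chr4:14087306-14087555 (plus), CRA1 at chr5:17758337-17758586 (minus) and OLEO1 at chr4:12900180-12900429 (plus).
CRU3: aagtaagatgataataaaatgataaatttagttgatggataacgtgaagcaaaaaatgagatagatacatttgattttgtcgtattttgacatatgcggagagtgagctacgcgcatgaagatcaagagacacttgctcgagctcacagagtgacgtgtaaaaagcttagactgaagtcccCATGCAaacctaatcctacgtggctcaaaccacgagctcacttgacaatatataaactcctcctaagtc
CRA1: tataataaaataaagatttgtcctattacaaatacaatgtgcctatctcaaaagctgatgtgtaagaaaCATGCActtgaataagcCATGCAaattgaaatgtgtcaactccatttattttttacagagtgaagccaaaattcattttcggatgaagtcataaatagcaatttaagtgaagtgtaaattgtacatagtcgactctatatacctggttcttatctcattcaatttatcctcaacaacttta
OLEO1: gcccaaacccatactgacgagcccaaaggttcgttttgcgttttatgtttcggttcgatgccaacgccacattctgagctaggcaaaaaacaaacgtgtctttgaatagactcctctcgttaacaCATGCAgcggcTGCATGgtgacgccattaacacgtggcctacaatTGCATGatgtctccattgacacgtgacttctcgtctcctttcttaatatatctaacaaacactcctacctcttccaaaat
Matches began 69 bases before the start in CRU3, 181 and 164 in CRA1, and 125, 114 and 80 in OLEO1. Of the 20 listed seed genes 14 held the motif in the window of 300 bases around the start, against 9.72% of all protein-coding genes, 9.92% of those that rose and 11.4% of those that fell. The G-box CACGTG was in 10 of the 20, against 7.68% of all windows, 8.33% of those of genes that rose and 9.83% of those that fell.

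**Figure D5:**
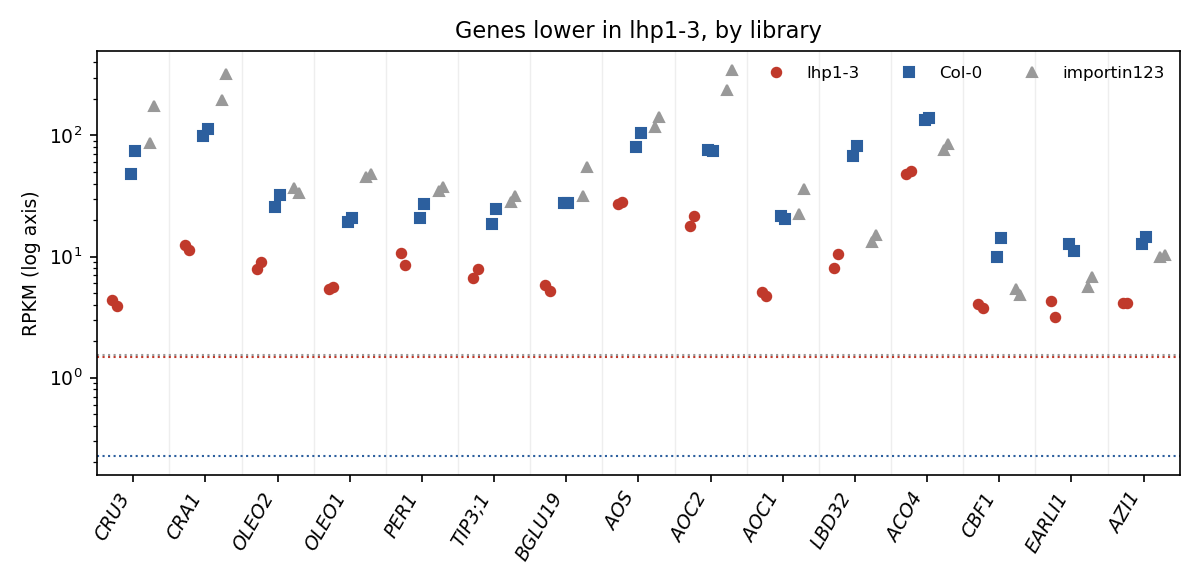
Level in RPKM as deposited (log axis) of genes that fell in lhp1-3, by library, with lhp1-3 left of Col-0 and importin123 last. Points are single libraries and dotted lines the mean floor of each genotype; CRU3 lies at 4.36 and 3.91 RPKM in lhp1-3, against 47.9 and 74.6 RPKM in Col-0.

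Of 27 jasmonate genes tested, 3 fell and 1 rose, where 7.19% of all genes fell and 9.09% rose. Allene oxide synthase (AOS) and the allene oxide cyclases (AOC) act in series to make the precursor of jasmonate. AOC1 (AT3G25760) read 5.13 and 4.69 RPKM in lhp1-3, against 21.8 and 20.6 RPKM in Col-0 and 22.4 and 36.1 RPKM in importin123. AOC2 (AT3G25770) read 17.8 and 21.7 RPKM in lhp1-3, against 75.8 and 74.7 RPKM in Col-0 and 238 and 347 RPKM in importin123. AOS (AT5G42650) read 27.1 and 28.1 RPKM in lhp1-3, against 79.5 and 104 RPKM in Col-0 and 117 and 141 RPKM in importin123. For all 3 the lhp1-3 libraries were the lowest of the 6. They fell, with differences of -2.34 ± 0.18, -1.76 ± 0.17 and -1.54 ± 0.16 (edgeR adjusted p = 0.000497, 0.000934 and 0.00107). AOC3, another cyclase, read 21.4 and 18.1 RPKM in lhp1-3, against 16.6 and 29.8 RPKM in Col-0, and was not called (-0.06 ± 0.28; edgeR adjusted p = 0.904). VSP1, a storage protein that jasmonate induces, rose by 1.11 ± 0.15 (edgeR adjusted p = 0.00266), with 93.02 and 65.4 RPKM in lhp1-3, against 44.6 and 42.6 RPKM in Col-0 and 23.5 and 25.6 RPKM in importin123. These 3 falls and this rise held in all fits; without Col-0 replicate 1 there were 8 falls, and without Col-0 replicate 2 there were 2 rises.

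Ethylene and cold genes were counted beside the 7.19% of all genes that fell and the 9.09% that rose. Of 18 ethylene genes 6 fell and none rose, with 2 falls without lhp1-3 replicate 1 and 3 without Col-0 replicate 2. ACO4, which makes ethylene, read 48.3 and 50.6 RPKM in lhp1-3, against 134 and 138 RPKM in Col-0 and 76.3 and 84.4 RPKM in importin123. It fell (-1.22 ± 0.11; edgeR adjusted p = 0.000693). ETR2, an ethylene receptor, read 3.88 and 3.16 RPKM in lhp1-3, against 6.33 and 6.33 RPKM in Col-0 and 3.95 and 3.204 RPKM in importin123, so that both mutants were alike (-1.31 ± 0.18 against Col-0; edgeR adjusted p = 0.0031). Of 22 cold and drought genes 6 fell and none rose, with 1, 2 and 3 falls without lhp1-3 replicate 1, lhp1-3 replicate 2 and Col-0 replicate 2, and 4 falls and 1 rise without either importin123 library. CBF1, a master regulator of the cold response, read 4.03 and 3.79 RPKM in lhp1-3, against 9.85 and 14.3 RPKM in Col-0 and 5.42 and 4.86 RPKM in importin123 (-2.01 ± 0.21; edgeR adjusted p = 0.00122). Its Col-0 level was above both mutants, and lhp1-3 differed from importin123 by -0.54 ± 0.21 (edgeR adjusted p = 0.105).

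Light-harvesting genes were lower in part, where 7.19% of all tested genes fell and 9.09% rose. Of 13 antenna genes 5 fell and none rose, but none of the falls was called without lhp1-3 replicate 1 or without Col-0 replicate 2, and 2 and 3 were called without lhp1-3 replicate 2 and Col-0 replicate 1. LHB1B2, an antenna protein of photosystem II picked with its values in view, read 189.98 and 259.5 RPKM in lhp1-3, against 859.6 and 761 RPKM in Col-0 and 1621 and 2375 RPKM in importin123. It fell (-1.58 ± 0.21; edgeR adjusted p = 0.00318), a call that held in all fits. LHCB1.1, a related gene with a near-identical copy, went the other way, with 94.4 and 133 RPKM in lhp1-3, against 40.4 and 54.9 RPKM in Col-0 (1.52 ± 0.23; edgeR adjusted p = 0.00617). Summed over 10 green-leaf markers, the level was 18134 and 20597 RPKM in lhp1-3, against 25813 and 25768 RPKM in Col-0 and 11502 and 14046 RPKM in importin123. The 14 nuclear reference genes, on the same deposited scale, summed to 1671 and 1848 RPKM in lhp1-3, against 2210 and 2120.3 RPKM in Col-0. After subtraction 2 of the 10 markers fell, and none did without lhp1-3 replicate 1 or Col-0 replicate 2.

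Some further falls are given gene by gene, of which EARLI1, AZI1, AT4G22513 and OSM34 were picked with their values in view. LBD32, a LATERAL ORGAN BOUNDARIES DOMAIN factor, read 8.05 and 10.4 RPKM in lhp1-3, against 67.4 and 81.7 RPKM in Col-0 and 13.3 and 15.1 RPKM in importin123. It fell (-2.98 ± 0.19; edgeR adjusted p = 0.000258), and the lhp1-3 level was also a little under that of importin123 (-0.67 ± 0.19; edgeR adjusted p = 0.0386). EARLI1 and AZI1 are neighbouring genes for small lipid-transfer proteins of defence. EARLI1 read 4.28 and 3.15 RPKM in lhp1-3, against 12.7 and 11.2 RPKM in Col-0 (-2.12 ± 0.24; edgeR adjusted p = 0.00157). AZI1 read 4.13 and 4.16 RPKM in lhp1-3, against 12.7 and 14.6 RPKM in Col-0 (-2.06 ± 0.16; edgeR adjusted p = 0.000435). Over all tested genes, 7.19% fell and 9.09% rose. Of 56 genes with a lipid-transfer inhibitor product, a class chosen after its values were seen, 15 fell and 2 rose. The counts were 6 and 1 without lhp1-3 replicate 1, and 17 and 11 without Col-0 replicate 1, and 1 rise was left without lhp1-3 replicate 2, Col-0 replicate 2 or importin123 replicate 1. A run of 8 neighbouring genes from AT4G22475 to AT4G22517 fell, 5 of them with a product of this kind. AT4G22495 and AT4G22505 had nearly the same level in every library, such as 26.4 and 25.5, and 26.7 and 25.8 RPKM, in lhp1-3. The levels of AT4G22475 and AT4G22485 also moved together, so the 8 may not be independent. The call held for 3 of the 8 without lhp1-3 replicate 1 and for 5 without lhp1-3 replicate 2 or Col-0 replicate 2, and AT4G22513 kept it in all fits, with 6.51 and 6.25 RPKM in lhp1-3, against 25.9 and 33.7 RPKM in Col-0 and 9.53 and 7.61 RPKM in importin123 (-2.32 ± 0.21; edgeR adjusted p = 0.000669). ACD6, a membrane protein that promotes salicylic acid defence, read 2.41 and 2.21 RPKM in lhp1-3, against 4.83 and 6.01 RPKM in Col-0 and 16.7 and 26.9 RPKM in importin123 (-2.38 ± 0.22; edgeR adjusted p = 0.0014). OSM34, an osmotin-like protein, read 26.4 and 17.3 RPKM in lhp1-3, against 67.3 and 76.2 RPKM in Col-0 (-1.55 ± 0.18; edgeR adjusted p = 0.00214). DFR, of anthocyanin synthesis, read 4.14 and 3.88 RPKM in lhp1-3, against 7.06 and 6.06 RPKM in Col-0 and 51.1 and 45.4 RPKM in importin123 (-1.05 ± 0.14; edgeR adjusted p = 0.00301).

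Some genes were expressed in Col-0 and at the floor in lhp1-3. By RPKM, 680 genes were at least 3 times the floor in both Col-0 libraries and at most 1.5 times the floor in both lhp1-3 libraries, and 1158, 1055 and 1148 when lhp1-3 replicate 1, lhp1-3 replicate 2 or Col-0 replicate 2 was left out. Most of them did not reach 3 times the lhp1-3 floor in Col-0. Of the 680, 11 reached 4.58 RPKM in both Col-0 libraries, which is 3 times the highest lhp1-3 floor, and 5 of those 11 are protein-coding. MRD1 read 1.91 and 1.87 RPKM in lhp1-3, against 17.3 and 16.7 RPKM in Col-0 and 2.05 and 1.53 RPKM in importin123 (edgeR adjusted p = 4.67e-05). Its neighbour HEI10, of meiotic crossovers, read 1.801 and 1.78 RPKM in lhp1-3, against 7.77 and 7.64 RPKM in Col-0 and 1.97 and 1.81 RPKM in importin123 (edgeR adjusted p = 0.000882). The long noncoding RNA AT1G07887 read 1.996 and 1.82 RPKM in lhp1-3, against 27.2 and 26.3 RPKM in Col-0 and 1.896 and 1.603 RPKM in importin123 (edgeR adjusted p = 6.25e-05). These 3 were at the floor in both mutants. DCF, of cutin synthesis, read 1.68 and 1.797 RPKM in lhp1-3, against 5.35 and 4.33 RPKM in Col-0 and 3.09 and 2.66 RPKM in importin123 (edgeR adjusted p = 0.00105). Falls that rested on single libraries were those of GASA3, a gibberellin-regulated gene (-2.48 ± 0.36; not called without either lhp1-3 library), LURP1 and PDF1.2, both of defence, and MIR853, all 4 not called without lhp1-3 replicate 1 (edgeR adjusted p = 0.0828, 0.0894, 0.189 and 0.188). Without lhp1-3 replicate 2 MIR853 was not called either (edgeR adjusted p = 0.115), and LURP1 moved to -2.75 without Col-0 replicate 2. PDF1.2 was called only with all libraries or without Col-0 replicate 1, and its difference of -2.37 moved to -3.19 without lhp1-3 replicate 2 (edgeR adjusted p = 0.0532) and to -1.61 without Col-0 replicate 2 (edgeR adjusted p = 0.151). RPL12-B, listed as a ribosomal protein gene, read 2.404 and 1.93 RPKM in lhp1-3, against 23.4 and 27.8 RPKM in Col-0 and 2.92 and 2.79 RPKM in importin123 (edgeR adjusted p = 0.000195). AT1G75945 differed, with 1.08 and 0.804 RPKM in lhp1-3, against 10.8 and 9.92 RPKM in Col-0 and 6.61 and 7.71 RPKM in importin123, and was at the floor in lhp1-3 alone (edgeR adjusted p = 0.000195).

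Families of metabolic enzymes were also counted, beside the 9.09% of all genes that rose and the 7.19% that fell. Of 132 cytochrome P450 genes, 22 rose and 12 fell, with 7 and 5 without lhp1-3 replicate 1, 14 and 8 without lhp1-3 replicate 2, and 10 and 7 without Col-0 replicate 2. CYP86A2, a fatty acid hydroxylase of cutin synthesis, read 16.3 and 17.5 RPKM in lhp1-3, against 42.1 and 49.5 RPKM in Col-0 and 31.6 and 37.1 RPKM in importin123 (-1.29 ± 0.12; edgeR adjusted p = 0.000832). CYP72A10 read 4.81 and 4.19 RPKM in lhp1-3, against 0.713 and 0.672 RPKM in Col-0 and 2.97 and 2.76 RPKM in importin123 (2.98 ± 0.22; edgeR adjusted p = 0.000405). Among 47 UDP-glycosyltransferases 3 rose and 9 fell, with 2 and 2 without lhp1-3 replicate 1, 3 and 3 without lhp1-3 replicate 2 and 7 and 7 without Col-0 replicate 1. UGT72E1, which glucosylates coniferyl aldehyde, read 25.7 and 22.9 RPKM in lhp1-3, against 58.2 and 60.7 RPKM in Col-0 (-1.101 ± 0.097; edgeR adjusted p = 0.000607). SWEET1, a sugar transporter, read 18.5 and 17.5 RPKM in lhp1-3, against 12.8 and 11.5 RPKM in Col-0 (0.74 ± 0.11; edgeR adjusted p = 0.0042). RGL2, a DELLA repressor of gibberellin response known for its part in germination, read 4.804 and 4.96 RPKM in lhp1-3, against 2.01 and 2.02 RPKM in Col-0 (1.203 ± 0.19; edgeR adjusted p = 0.00589). Of 14 nuclear reference genes none was called.

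Noncoding classes differed from protein-coding genes taken as a whole, which are longer. Of 1020 long noncoding RNA genes 49 rose (4.80%) and 154 fell (15.1%), beside 1693 rises and 1171 falls among 18166 protein-coding genes. The median span was 430 bp for the long noncoding RNA genes and 2323 bp for the protein-coding genes. Of 1495 protein-coding genes spanning under 1000 bp, 125 rose (8.36%) and 171 fell (11.4%). The part of gene span in the differences between classes was not tested. Without lhp1-3 replicate 1 there were 16 rises and 35 falls of long noncoding RNA genes, without lhp1-3 replicate 2 there were 36 and 88, and without Col-0 replicate 2 there were 32 and 66. Of 172 snoRNA genes, with a median span of 103 bp, 36 fell and none rose, with 18 falls without lhp1-3 replicate 1. Of 58 tRNA genes 32 rose and 6 fell, of which 27 and 2 held in all fits; without Col-0 replicate 2 there were 3 falls. A match of at least 50 bp at 90% identity to an organelle genome was present in 24 of the 58, and all 24 rose, in every fit. Of the other 34, 8 rose and 6 fell, and 3 and 2 held in all fits. This split was made after the values were seen, and it stands beside the larger chloroplast share of counts in lhp1-3, 14.9% and 14.5%, against 2.95% and 3.27% in Col-0. Poly(A) selection does not target snoRNA and tRNA, and how reads of overlapping genes were counted is not stated. Of 10789 pairs of neighbouring tested genes that do not overlap, both rose in 207, both fell in 75 and 1 rose while the other fell in 98. Over all tested genes 9.09% rose and 7.19% fell, and the pair counts these shares would give were not worked out. Genes with near-identical copies, of which 50.4% rose, were not set apart. The pair counts alone thus do not show whether neighbours moved together.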

How the data were processed

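Poly(A)-selected RNA of whole seedlings was sequenced, with 2 libraries per genotype grouped by title. The authors deposited a count and an RPKM value per gene and library; FastQC, HISAT2, SAMtools, bedtools, edgeR and the TAIR10 build are named per the submitters' processing notes, without versions, parameters or strandedness. Counts were used as deposited, and the deposited RPKM values, per kb of the whole span, served for levels.

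The members, gene lists and tests were chosen with earlier results of these data known. Deposited counts were fitted with edgeR 4.0.16 in R 4.3.3 (TMM, filterByExpr, robust quasi-likelihood test, two-sided, all 6 libraries), which tested 33906 features, and p-values were adjusted by Benjamini-Hochberg over all of them at 0.05. For the subtracted fit, each library's floor, in reads per kb times gene span, was taken from its counts, and 19701 genes were kept whose mean net count was at least the mean floor and at least 10; 109 genes matching an organelle genome over 100 bp at 95% identity (BLAST 2.17.0) were left out. A gene at the floor in Col-0 could pass through its lhp1-3 or importin123 level alone. The biological coefficient of variation was 0.140 and 0.142. SE is the absolute log2 difference over the square root of F. No subtracted difference from Col-0 is given for a gene whose net level was under 0.5 of the floor in lhp1-3 or Col-0. Differences from importin123 were not screened for the importin123 level in this way. A near-identical copy is a hit of at least 200 bp at 95% identity or more covering at least 20% of the span, and 1105 genes have one.

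Named genes were LHP1, the 15 largest rises and falls with a symbol, up to 10 genes going from floor to level, and up to 4 per list and direction by adjusted p, and further members of a list where it is described; others are said to be picked with their values in view. Names, biotypes, spans and sequences came from RefSeq assembly TAIR10.1, where 32508 of 32524 spans matched within 2 bp. Promoter windows ran from 250 bases before to 50 after the start. Replicates correlated at 0.995 in lhp1-3 and 0.994 in Col-0 (Pearson, log2 CPM over genes), with a chi-square per degree of freedom of 22.2 and 26.9, so the replicates differed by more than sampling noise. Depth was 70137936 to 95101867 counts, and the number of libraries more than depth limited the precision. DESeq2 1.42.0, limma 3.58.1 and other settings were alternatives.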

Additional observations from a re-analysis of the deposited data

Results flagged for a closer look

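Organelle features lie outside the nuclear comparison and held more counts in lhp1-3 than in Col-0. Chloroplast features took 14.9% and 14.5% of all counts in lhp1-3 replicates 1 and 2, against 2.95% and 3.27% in Col-0 and 18.7% and 13.7% in importin123. Mitochondrial features took 0.463% and 0.467% of all counts in lhp1-3, against 0.128% and 0.124% in Col-0 and 0.639% and 0.457% in importin123. Every lhp1-3 library was above both Col-0 libraries in both measures, and no test was run on them. Groups of 2 libraries are too small for a search for single libraries that stand apart.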

How the results depend on the processing

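Counts moved with the processing. No named gene that was called changed sign under any alternative of that fit; of those not called, SOC1, SESA1, SWEET1 and SNC1 did on deposited counts and AOC3 did on both scales. On deposited counts, 13349 genes were higher in lhp1-3 and 11195 lower. Scaling from genes with a mean RPKM of at least 10 gave 21173 and 1438, a 2-fold minimum gave 7867 and 506, and limma on log2(RPKM + 1) gave 4120 lower, with 4079 at a pseudocount of 0.1 and 4141 with no filter. Leaving out each library gave 11731 to 13568 higher and 7338 to 10689 lower. LHP1 stood at -0.30 with the first of these scalings (edgeR adjusted p = 0.0613) and at -1.03 with the 2-fold minimum (0.488), where neither was called.

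On subtracted counts, 1791 genes were higher and 1416 lower. A floor lowered by 25% gave 3627 and 2562, a floor raised by 25% gave 857 lower, a 2-fold minimum gave 200 and 47, DESeq2 gave 2147 lower, and a filter at 3 times the floor gave 934 lower. Leaving out each library gave 485 to 1708 higher and 269 to 1193 lower. LHP1 was at -1.02 with the 2-fold minimum (edgeR adjusted p = 1). The cause of the shifts was not tested, except that the 2-fold minimum asks for more. Genes above the floor in lhp1-3 alone numbered 6, and 22, 2 and 11 at multiples of 2 and 1.5, 5 and 1.5, and 3 and 2 of the floor, with 7 to 15 without 1 lhp1-3 or Col-0 library. Genes above it in Col-0 alone numbered 680, and 1516, 160 and 2763 at those multiples, with 910 to 1158 without 1 library. Without genes that have near-identical copies, an alternative chosen after seeing the data like the next one, 1614 were higher and 1139 lower, and without spans of 4000 bp or more 1236 and 996.

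Same-numbered libraries did not deviate together (correlation -0.08 on deposited and -0.07 on subtracted counts), so the numbers do not pair them. With the replicate number as a block, 13059 were higher and 11068 lower as deposited, and 1493 and 1218 after subtraction, where 3 of 105 named genes lost their call. Of those 105, 21 lost it without lhp1-3 replicate 1, 8 without lhp1-3 replicate 2, 6 without Col-0 replicate 2, 2 without Col-0 replicate 1 and 53 with the 2-fold minimum. In lhp1-3, genes near the floor of 1.53 and 1.44 RPKM could not be told from silent ones.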
